A study of Mus musculus with 4 samples.

Results

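The clustered histone genes are the genes of linker histone H1 and of the core histones H2A, H2B, H3 and H4 that lie side by side in the Hist1 to Hist4 clusters of the mouse genome. They were taken as every gene of the deposited count table whose name begins with Hist, a cluster number from 1 to 4 and the letter h, which gave 69 of 28649 genes. By annotation 56 lie on chromosome 13, 10 on chromosome 3, 2 on chromosome 11 and 1 on chromosome 6. Of the 69, 11 reached a mean of 1 TPM (a transcript level scaled for depth and transcript length) over the 4 libraries.

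The libraries came from cultured fibro-adipogenic progenitors (FAPs), Sca1-positive mesenchymal cells sorted from mouse skeletal muscle. There were 2 libraries of cells from miR-206 knockout (KO) mice and 2 of wild-type cells, whose genotype label is C57Bl/6. Both genotypes were grown in DMEM with 20% FBS, 10% HS and 5 ng/ml FGF, then held for 48 hours in DMEM with 10% HS before RNA was taken, and the comparison asked how loss of miR-206 alters the transcriptome. The labels do not name the strain of the KO mice or say whether replicates came from separate animals or cultures. A strain difference and loss of miR-206 therefore cannot be told apart, and p-values measure the spread between these libraries, which may be technical. Mir206 was not analysed here.

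Most histone protein is made during DNA synthesis from the messages of these clusters. Such messages are known to have no introns and no poly(A) tail: they end just after a short stem-loop, which the protein Slbp binds and after which the U7 small nuclear RNA guides cleavage. Some clustered genes are also known to give polyadenylated messages that run past the stem-loop or lack it, above all in cells that have left the cell cycle. Variant histone genes outside the clusters include replication-independent ones such as H3f3a and H3f3b, whose messages are spliced and carry ordinary poly(A) tails. The kit used here is an mRNA kit that selects poly(A) tails, so the levels below describe polyadenylated RNA and are no measure of histone synthesis.

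The stem-loop sequences are shown because they mark where the replication-dependent message is known to end. Capitals mark the paired arms, each sequence is read 5' to 3' along the transcript, and all come from GENCODE M21 transcripts (GRCm38, mm10). Among the 11 genes at 1 TPM, 9 transcripts held such a stem-loop.
Hist1h1c (chr13:23739507-23739532, plus strand): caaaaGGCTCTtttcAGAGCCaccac
Hist2h2aa1 (chr3:96246027-96246052, plus strand): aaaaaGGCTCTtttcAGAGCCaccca
Hist2h2aa2 (chr3:96239779-96239804, minus strand): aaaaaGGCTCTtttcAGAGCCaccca
Hist3h2a (chr11:58955167-58955192, plus strand): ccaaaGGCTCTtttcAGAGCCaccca
Hist2h3c1 (chr3:96247322-96247347, plus strand): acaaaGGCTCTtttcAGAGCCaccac
Hist2h3c2 (chr3:96238480-96238505, minus strand): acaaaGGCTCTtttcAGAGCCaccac
Hist1h4i (chr13:22040961-22040986, minus strand): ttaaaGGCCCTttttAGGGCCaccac
Hist1h4h (chr13:23531453-23531478, plus strand): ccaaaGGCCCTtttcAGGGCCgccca
Hist1h4n (chr13:21831793-21831818, minus strand): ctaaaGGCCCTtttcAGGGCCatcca
The H1, H2A and H3 genes shared one pair of arms and the H4 genes another.

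Hist1h2bc and Hist2h2be, both H2B genes, were the 2 of the 11 with no stem-loop in the annotated transcript. The hexamer AATAAA, which directs ordinary cleavage and polyadenylation, is in capitals in their 3' ends.
Hist1h2bc (chr13:23692450-23692479, plus strand): tgatgtatatatAATAAAtgtcatgtaaag
Hist2h2be, upstream copy (chr3:96223648-96223677, plus strand): tgtcatagatcgAATAAAtccattcactgc
Hist2h2be, downstream copy (chr3:96223705-96223734, plus strand): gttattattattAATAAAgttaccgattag
The annotated Hist1h2bc transcript is also spliced. Its stop codon, in capitals in the stretch that joins the 2 exons, lies near the end of exon 1.
Hist1h2bc exon junction (chr13, first base 23684607 and last base 23692190, with the intron left out): aagTGAtcctgccaagaggagcagacctga
The gene runs from 23684199 to 23692908 on chromosome 13. Exon 1, of 423 bases, holds the whole coding sequence (23684232 to 23684612), an intron of 7554 bases follows, and exon 2, of 733 bases, is 3' UTR only.

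A few genes carried nearly all of the signal. The 4 highest, Hist1h2bc, Hist2h2aa2, Hist1h1c and Hist2h2aa1, held between 80.2% and 82.2% of the summed TPM of all 69 in each library, and they were the genes with a mean of at least 10 TPM. Hist1h2bc alone held 39.5% and 36.0% in KO and 44.0% and 47.4% in wild type. By TPM it ranked 2126 and 2271 among all genes in KO, and 1107 and 1279 in wild type.

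**Figure D1:**
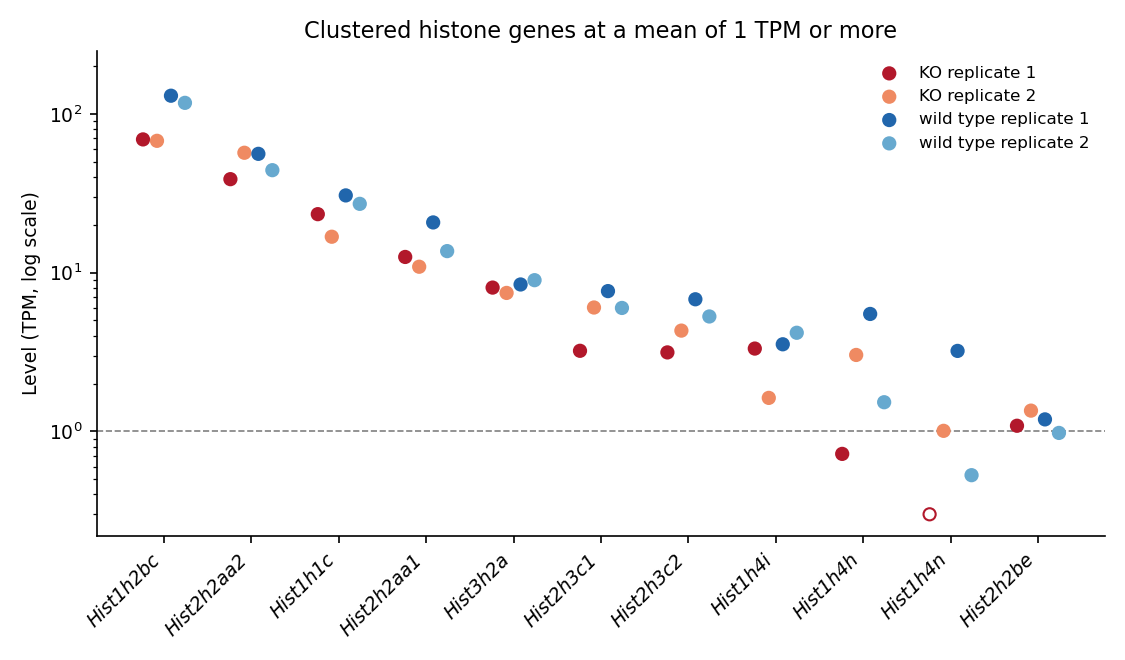
TPM (log axis) of the 11 clustered histone genes with a mean of at least 1 TPM, 1 point per library, KO and wild type; the dashed line is 1 TPM and an open symbol at the bottom is a library listed at 0. Hist1h2bc is highest, with 69.1 and 67.7 TPM in KO below 130 and 117 TPM in wild type, while the KO and wild-type points of Hist2h2aa2 overlap.

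The other 58 genes lay below 1 TPM and rested on few reads, with a median of 7.3 estimated counts over the 4 libraries together and at most 130.5. Of all 69 genes 6 were at 0 in every library (Hist1h1t, Hist1h2ah, Hist1h2aj, Hist1h2ak, Hist1h2al and Hist1h2bk), 49 were above 0 in some libraries, and 14 were above 0 in all. A count of 0 allows a level of up to 0.0982 CPM, counts scaled to library size alone (3 counts per library in the shallowest one; counting error only). The genes above 0 numbered 28 and 31 in KO and 41 and 50 in wild type, in libraries of 35521839, 30550235, 34827986 and 44561117 estimated counts. Estimates far below 1 read are among them, such as Hist1h2ap with 0.0041 and 0.0023 counts in KO. The share of all genes above 0 in each library was not counted here, so these numbers are no comparison of the genotypes. Nearest the line were Hist2h2be, inside it with a mean of 1.15 TPM, and Hist1h4n, also inside with 1.19 TPM. Just outside were Hist1h4k, an H4 gene with a mean of 0.955 TPM, and Hist1h3d, an H3 gene with 0.954 TPM. With the line applied to any single library 25 genes reached it, and 8 reached it in every library.

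The 11 genes did not share one type of 3' end. The stem-loop of Hist1h1c lies 840 bases before the end of its annotated transcript, that of Hist3h2a 1643 bases, and that of Hist2h3c1 1162 bases, and each of these transcripts holds an AATAAA after the stem-loop. In Hist2h3c2 and Hist1h4i 377 and 330 bases follow the stem-loop, with no AATAAA in them. The Hist2h2aa1, Hist2h2aa2, Hist1h4h and Hist1h4n transcripts end 35, 35, 46 and 31 bases after it, so reads of these 4 fall on a transcript model of the replication-dependent kind.

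Across the 58 lower genes, 35 GENCODE M21 transcripts held the stem-loop, 17 of them within 60 bases of the end and 12 more than 300 bases before it. In 15 the model stopped at the stop codon with no 3' UTR. Some of the 12 were quantified over a much shorter model, by the ratio of count to TPM described below. Hist1h3d was quantified over 560 of 1249 bases, Hist1h2ac over 476 of 2482 and Hist1h1e over 748 of 1930. Low counts of such genes therefore do not describe the long annotated 3' end. AATAAA after the stop codon was found in 5 of the 11 higher genes and 12 of the 58 lower ones. That count too is of the GENCODE M21 models, and the first AATAAA of Hist1h2ac, at base 1075, lies beyond its quantified length. The motif searched was GGNNCTNNNNAGNNCC on the transcript strand, with arms that pair base for base, and 141 of 28335 listed transcripts held it (0.498%). AATAAA was present anywhere in 49.6% of them. No match says only that these letters are not in the transcript model.

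**Figure D2:**
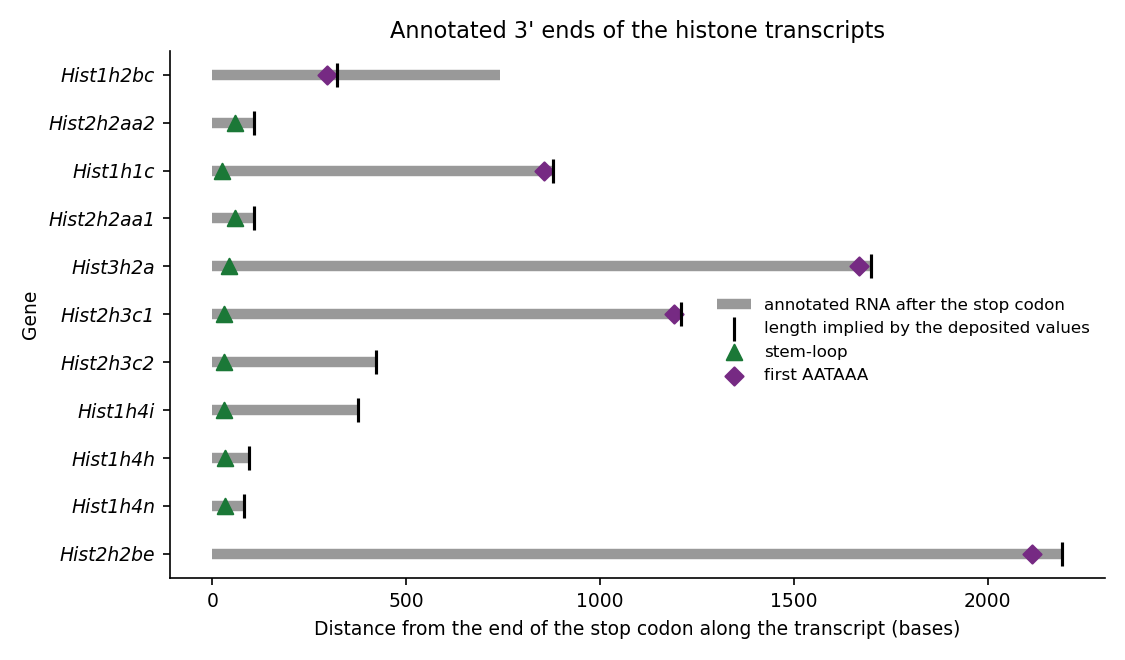
The annotated RNA after the stop codon (grey bars, in bases along the transcript from the end of the stop codon) of the 11 genes at 1 TPM or more, with the stem-loop, the first AATAAA and, as a black tick, the end implied by counts and TPM, placed as though any difference from the annotated length lay at the 3' end. The stem-loop lies from 31 bases (Hist1h4n) to 1643 bases (Hist3h2a) before the transcript end, Hist1h2bc and Hist2h2be have none, and the tick of Hist1h2bc falls short of its bar.

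The ratio of count to TPM also gives the transcript length that the authors' quantification used. For 10 of the 11 genes that length lay within 2% of the GENCODE M21 transcript. For Hist1h2bc it was 736 bases in each of the 4 libraries against 1156 in GENCODE M21. The RefSeq gene on the same build ends at 23692480, just after the AATAAA shown above, which gives 728 bases. The TPM of Hist1h2bc therefore refers to the shorter length. Its counts and CPM are not divided by length, but they hold only reads assigned to the model that was quantified.

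Hist1h2bc, the H2B gene that leads the set, fell in KO cells. It had 69.1 and 67.7 TPM in KO and 130 and 117 TPM in wild type, from 893 and 737 estimated counts against 1698 and 1923. Both KO libraries lay well below both wild-type libraries, and the libraries of a genotype differed little. In CPM the level was 25.0 ± 1.22 in KO and 45.3 ± 3.24 in wild type (SD, n = 2). The log2 fold change was -0.86 with an SE of 0.09, past the threshold (edgeR quasi-likelihood, Benjamini-Hochberg adjusted p = 0.0292 over 14507 genes). The call was lost in all 4 fits with 1 library left out, with log2 fold changes from -0.93 to -0.79 and edgeR adjusted p from 0.0559 to 0.139, and also by limma-voom (adjusted p = 0.0696) and without robust estimation (adjusted p = 0.0737).

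Part of Hist1h2bc could trade reads with other H2B genes. Of the 31-base words of exon 1, 352 of 393 (89.6%) also occur in other genes. Words were counted between the GENCODE M21 sequences of the listed transcripts, which need not be the models that were quantified. Those sharing the most words with the whole annotated Hist1h2bc were listed as Hist1h2bh and Hist1h2bm, with 289 each. Then came Hist1h2bq and Hist1h2br with 285 each and Hist1h2bg with 275. GENCODE M21 places the transcripts listed as Hist1h2bh and Hist1h2bm in Hist1h2bq and Hist1h2br. Counted by GENCODE M21 gene, the most were Hist1h2br with 290, Hist1h2bq with 289 and Hist1h2bg with 275. Of the words of exon 2 of the GENCODE model 36 of 703 (5.12%) occur in other genes, and across the junction 0 of 30 do. Up to the RefSeq gene end, the model closest to the length that was quantified, 352 of 698 (50.4%) do. All 18 H2B genes together had 987 and 848 counts in KO and 1861 and 2097 in wild type. Scaled for depth, the sums were 28.6 and 27.8 CPM in KO and 52.2 and 46.9 CPM in wild type. These sums do not depend on how reads were divided among the 18 genes. Most of each is Hist1h2bc itself, with 893 and 737 counts in KO and 1698 and 1923 in wild type. They are therefore no separate check on its fall, and the part of shared reads in it was not tested.

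Of the 69 genes 14 passed the filter on low counts and were tested, 10 of them at 1 TPM and 4 below it. Hist1h2bc was the 1 called, and 0 rose, where 0.427% of all tested genes were called (0.186% lower and 0.241% higher in KO). By unadjusted edgeR p, 2 of the 14 were under 0.05, Hist1h2bc and Hist1h1c, both lower, where 14.3% of all tested genes did (7.18% lower). The fold change was negative in 13 of the 14, against 50.4% of all tested genes, with a median of -0.60 log2 against -0.00 over all tested genes. In 9 of the 14 both KO libraries lay below both wild-type libraries by CPM, against 24.4% of all tested genes, and in 0 both lay above, against 23.8%. Without Hist1h2bc the other 13 had a median of -0.57 log2. Since these genes share reads, the counts are a description of the set.

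**Figure D3:**
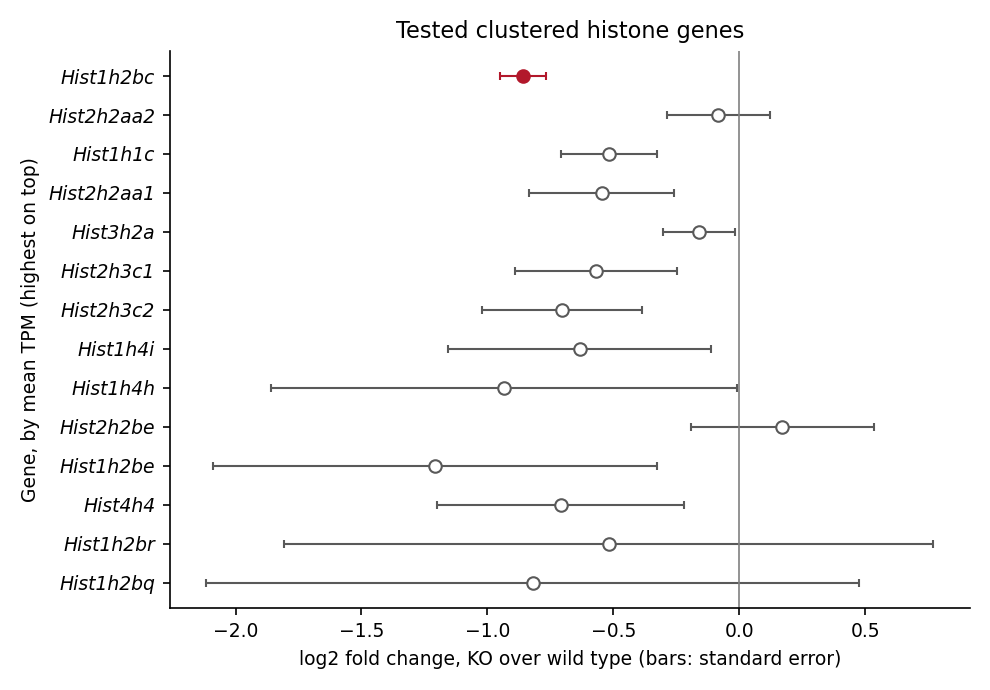
Log2 fold change of KO over wild type, with its standard error as bars, for the 14 tested clustered histone genes; the line at 0 is no difference. The values run from -1.21 (Hist1h2be) to 0.17 (Hist2h2be), and Hist1h2bc, at -0.86 with an SE of 0.09, is the called gene (filled symbol).

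Hist1h1c, the linker histone gene of the set, had 23.3 and 16.8 TPM in KO and 30.7 and 27.1 TPM in wild type. Both KO libraries lay below both wild-type libraries, by a margin smaller than the gap between the KO libraries. Its log2 fold change was -0.52 (SE 0.19), which did not pass (edgeR adjusted p = 0.315, unadjusted p = 0.0388). It shared 11.4% of its words with other genes, one of the lower shares of the set.

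Of the H2A genes, Hist2h2aa1 and Hist2h2aa2 lie in one cluster on chromosome 3, at 96245497 to 96246082 and 96239749 to 96240276, and have the same stem-loop. All 498 words of Hist2h2aa2 also occur in Hist2h2aa1, so how their reads were divided is uncertain and their sum is the firmer value. Hist2h2aa2 had 38.8 and 56.9 TPM in KO and 56.0 and 44.2 TPM in wild type, with overlapping genotypes and a log2 fold change of -0.08 (SE 0.20, edgeR adjusted p = 0.892). Hist2h2aa1 had 12.6 and 10.9 TPM in KO and 20.7 and 13.7 TPM in wild type, with a log2 fold change of -0.55 (SE 0.29, edgeR adjusted p = 0.460). Summed, they had 12.9 and 15.8 CPM in KO and 18.7 and 14.2 CPM in wild type, which overlap, and a log2 fold change of -0.20 (SE 0.18, edgeR adjusted p = 0.668; a fit added after the data were seen). Both also lie wholly under antisense genes of the annotation, Gm20633 and Gm20632, and the same-strand transcript Gm20634 shares 529 of the 586 bases of Hist2h2aa1. These 3 were not analysed here, and the use of strand in counting is not given in the sources used here.

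Hist3h2a, an H2A gene of the small Hist3 cluster on chromosome 11 (58954685 to 58956830), had 8.05 and 7.45 TPM in KO and 8.42 and 8.96 TPM in wild type. The genotypes did not overlap, yet the gap was small, with a log2 fold change of -0.16 (SE 0.14, edgeR adjusted p = 0.668). Its transcript shares 708 bases on the same strand with Trim17, which had at most 0.563 TPM.

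The H3 genes at 1 TPM, Hist2h3c1 and Hist2h3c2, have 636 words in common, which are 64.2% of those of Hist2h3c2 and 35.5% of those of Hist2h3c1. All words of Hist2h3c1 occur in other genes, and Gm20634, a processed transcript on the same strand that was not analysed here, covers all 1820 bases of it, so its counts are uncertain. Hist2h3c1 had 3.22 and 6.03 TPM in KO and 7.65 and 5.99 TPM in wild type, and a log2 fold change of -0.57 (SE 0.32, edgeR adjusted p = 0.496). KO replicate 2 and wild type replicate 2 were level, slightly higher in KO by TPM and slightly lower by CPM. Hist2h3c2 had 3.14 and 4.31 TPM in KO and 6.79 and 5.29 TPM in wild type, with no overlap, and a log2 fold change of -0.70 (SE 0.32, edgeR adjusted p = 0.388).

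The H4 genes encode the same protein from separate copies and were near the lower limit. Hist1h4i had 3.32 and 1.62 TPM in KO and 3.53 and 4.18 TPM in wild type (log2 fold change -0.63, SE 0.52, edgeR adjusted p = 0.638). Hist1h4h had 0.721 and 3.03 TPM in KO and 5.49 and 1.53 TPM in wild type, which overlap, and its log2 fold change of -0.93 had an SE as large (0.93, edgeR adjusted p = 0.703). Without wild type replicate 1 it was 0.21. Hist1h4n was at 0 and 1.01 TPM in KO and 3.21 and 0.529 TPM in wild type, from 29.1 counts in all, and was not tested.

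Hist2h2be, the other H2B gene at 1 TPM and the one with a long annotated 3' UTR, was the exception in sign. It had 1.08 and 1.35 TPM in KO and 1.19 and 0.977 TPM in wild type, which overlap, with a log2 fold change of 0.17 (SE 0.36, edgeR adjusted p = 0.873). Only 2.8% of its words occur in other genes. Of the genes tested below 1 TPM, Hist1h2be had a log2 fold change of -1.21 (SE 0.88) and Hist4h4, the gene of the Hist4 locus, -0.71 (SE 0.49), and neither passed (edgeR adjusted p = 0.596 and 0.572).

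Hist1h2bq and Hist1h2br are near-identical copies in GENCODE M21, where all words of the Hist1h2bq transcript occur in that of Hist1h2br. The median length implied by count and TPM for Hist1h2bq was 2071 bases against 1254 annotated. The model quantified for it was thus not that transcript alone. In each KO library 1 of these genes was at 0 while the other held 18.5 or 14.9 counts. Summed, they had 18.5 and 14.9 counts in KO and 32.8 and 32.7 in wild type, with a log2 fold change of -0.67 (SE 0.54, edgeR adjusted p = 0.628). In that fit 33 of the 69 genes were joined into 7 sums, 14 rows were tested, 13 were negative and Hist1h2bc was again the 1 called.

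Summed over all 69 genes the level was 81.6 and 80.0 CPM in KO and 128 and 111 CPM in wild type. The KO libraries were nearly equal and below both wild-type libraries, a log2 ratio of the means of -0.56, and no test was run on the sums. In TPM the sum without Hist1h2bc was 105.8 and 120.4 in KO and 166.0 and 130.4 in wild type. By histone class the log2 ratio of mean CPM was -0.81 for H2B, which is mostly Hist1h2bc, -0.66 for H3, -0.66 for H4, -0.52 for H1 and -0.20 for H2A. The Hist1 cluster had -0.73 and did not overlap, while the Hist2 cluster had 19.8 and 26.8 CPM in KO against 32.9 and 25.2 CPM in wild type, which overlap.

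**Figure D4:**
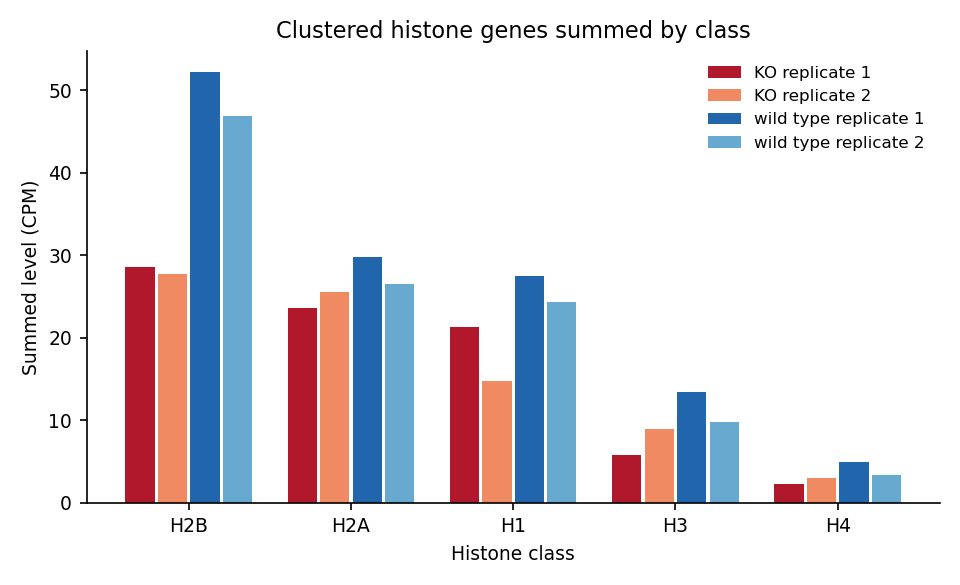
Summed CPM of the clustered histone genes of each histone class in each library, 1 bar per KO or wild-type library, from 0. The H2B sums are 28.6 and 27.8 in KO and 52.2 and 46.9 in wild type, the widest gap in CPM of the 5 classes.

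The variant histone genes outside the clusters stood at a higher summed level. They are a mixed list, which also holds H2afx, known for messages of both kinds. The 18 genes summed to 1527 and 1515 TPM in KO and 1506 and 1471 TPM in wild type, and 0 of the 11 tested were called, with a median of 0.06 log2. H3f3a, which encodes the replacement form of H3, had 767 and 759 TPM in KO and 789 and 738 TPM in wild type (edgeR adjusted p = 0.963), and H3f3b, encoding the same protein, had 294 and 285 TPM against 268 and 267 TPM (edgeR adjusted p = 0.50). Of the 11, 1 gene had an unadjusted edgeR p under 0.05, against 14.3% of all tested genes: H2afz, with -0.28 log2 (SE 0.07, adjusted p = 0.171). The variant and clustered sets were not tested against each other.

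Among the 33 genes of histone message processing 0 were called, and 4 had an unadjusted edgeR p under 0.05, all lower in KO, a share below the 14.3% of all tested genes; the median was -0.00 log2. The 2 of highest level were the Sm protein genes Snrpg (158 and 150 TPM in KO, 135 and 137 TPM in wild type) and Snrpe (139 and 153 TPM against 153 and 130 TPM). Slbp, the stem-loop binding protein gene, had 30.3 and 32.3 TPM in KO and 32.3 and 34.5 TPM in wild type, a log2 fold change of -0.10 (SE 0.09, edgeR adjusted p = 0.681).

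Of the 43 DNA replication and division genes 0 were called, 4 had an unadjusted edgeR p under 0.05, all lower in KO, a share below the 14.3% of all tested genes. The log2 fold change was below 0 in 33, against 50.4% of all tested genes, its median being -0.12. In 13 of the 43 both KO libraries lay below both wild-type libraries by CPM, against 24.4% of all tested genes. In 1 both lay above, against 23.8%. The 2 of highest level were Pcna, the sliding clamp of DNA polymerase, with 69.6 and 74.2 TPM in KO and 68.0 and 75.0 TPM in wild type, and the mitotic kinase gene Cdk1, with 48.4 and 53.7 TPM against 56.3 and 55.3 TPM. Genotypes overlapped for Pcna, and for Cdk1 by CPM.

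Hjurp, which deposits the centromeric H3 variant, was the 1 called gene of the 23 histone chaperone genes, and it fell, where 0.427% of all tested genes were called. It had 39.1 and 31.1 TPM in KO and 51.9 and 51.0 TPM in wild type, a log2 fold change of -0.53 (SE 0.07, edgeR adjusted p = 0.0424). The log2 fold change lay between -0.55 and -0.52 in the fits without 1 library, yet the call was lost in each (edgeR adjusted p from 0.0963 to 0.171). It was also lost without robust estimation (0.0892), by limma-voom (0.0734) and by limma on both log2 TPM scales (0.265 and 0.265). The 23 had a median of -0.07 log2.

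**Figure D5:**
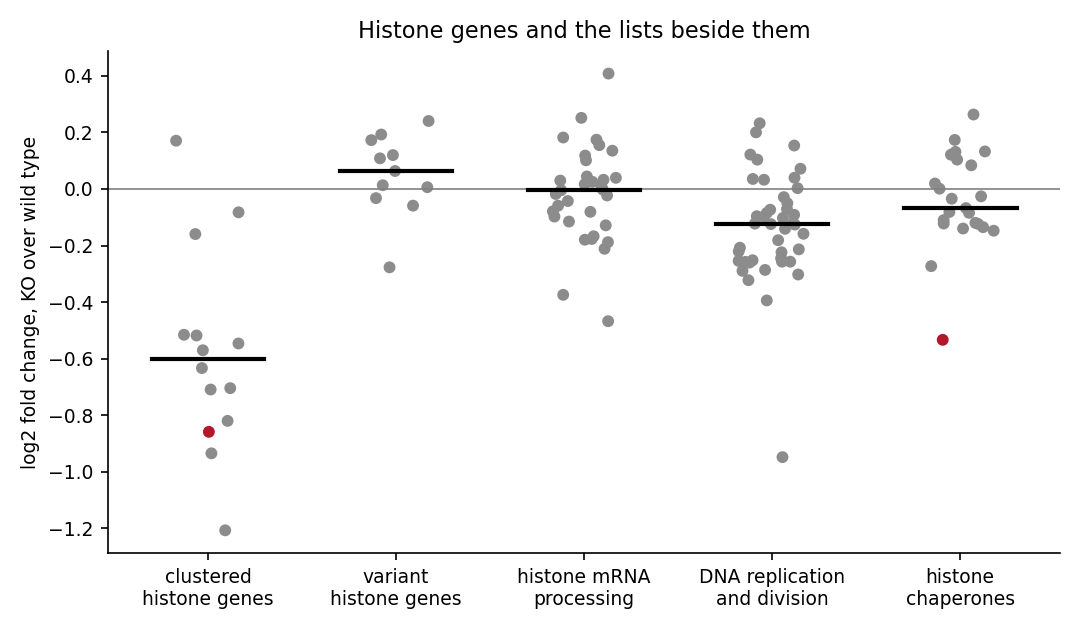
Log2 fold change of KO over wild type for each tested gene of the clustered histone, variant histone, histone message processing, DNA replication and division, and histone chaperone lists, with the median of each as a line and called genes in red. The medians are -0.60, 0.06, -0.00, -0.12 and -0.07, and the called genes are Hist1h2bc and Hjurp.

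The levels of cell type markers also differed between libraries. FAP markers were high in every library, with summed levels of 14440 and 14100 TPM in KO and 11460 and 14910 TPM in wild type. Adipocyte markers were lower in KO in 7 of 7 tested, against 50.4% of all tested genes, with sums of 823 and 575 TPM against 1691 and 1225 TPM. Cidec was the 1 called, where 0.427% of all tested genes were called, and Lep was near 0. Muscle-lineage markers summed to 1519 and 181 TPM in KO and 2923 and 1682 TPM in wild type. The gap within KO was wider than that between KO replicate 1 and wild type replicate 2. The fold change was negative in 8 of 8 tested, against the same 50.4%, and 0 were called. The satellite cell genes Pax7 and Myf5 were near 0. Without KO replicate 2, the library of the low muscle-lineage sum, the log2 fold change of Hist1h2bc was -0.81. That lies within its range of -0.93 to -0.785 over all fits without 1 library. The call was lost whichever library was left out, so its loss is not particular to KO replicate 2. The part of either marker difference in the fall of Hist1h2bc was not tested. Endothelial, pericyte and hematopoietic markers summed to at most 20.3 TPM in any library, and the macrophage gene Adgre1 was at 0 in all 4. In these bulk libraries fewer cells of a type and less RNA per cell cannot be told apart.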

How the data were processed

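Libraries were stranded mRNA libraries of cultured FAPs. FastQC, kallisto and mm10 are named in the submitters' processing notes, with no version, annotation release or use of strand. The authors deposited estimated counts per gene, not normalized, and TPM, which summed to between 907609 and 922339 per library. A further deposited sheet holds genotype means of TPM and a log2 difference between genotypes, KO minus wild type.

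After rounding, counts were compared in edgeR 4.0.16 under R 4.3.3 (quasi-likelihood, robust, TMM, filterByExpr, two-sided, threshold 0.05 on Benjamini-Hochberg adjusted p over 14507 genes), a step tested on simulated data. CPM use the TMM-adjusted library size. Alternatives used DESeq2 1.42.0 and limma 3.58.1. Total estimated counts were 35521839 and 30550235 (KO) and 34827986 and 44561117 (wild type). Replicates differed beyond sampling noise, with a chi-square per gene of 38.3 (KO) and 28.7 (wild type), where sampling noise alone gives 1.

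The transcript of each gene was looked up in GENCODE M21; all 69 matched, 2 under another name there. Words of 31 bases shared between genes were counted as a guide to ambiguous reads. Genes named are those at 1 TPM, those called, the nearest on each side of 1 TPM, and for each list the called genes or else the 2 of highest TPM. Others named (Hist1h2be, Hist4h4, Hist1h2bq, Hist1h2br, H2afz, Slbp) were chosen after their values were seen. The genes and lists were chosen with earlier results of these data known.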

Additional observations from a re-analysis of the deposited data

How the results depend on the processing

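The 62 genes called became 133 with library size alone, 491 with no low-count filter, 660 with DESeq2, 11 without robust estimation, 14 with limma-voom, and 7 and 6 with limma on log2(TPM + 1) and log2(TPM + 0.1). Leaving out 1 library gave 7 to 77. Clustered histone genes called were 0 without robust estimation, 0 with limma-voom, 0 with limma on either TPM scale and 0 in each fit without 1 library; otherwise Hist1h2bc was the 1 called. Its log2 fold change kept its sign, from -0.93 to -0.79 across the fits without 1 library, with adjusted p of 0.117 and 0.113 on the TPM scales. Each such fit leaves 1 library in a genotype, assumed to vary like the other. Hist2h2aa2 turned to 0.13 without KO replicate 1 and to 0.09 without wild type replicate 1, within a range of -0.33 to 0.13, and Hist1h4h to 0.21 without wild type replicate 1, within -2.24 to 0.21; the cause was not tested. The count of 11 genes at 1 TPM was 25 when any 1 library sufficed, 8 when every library had to reach it, 9 at a mean of 1 CPM and 10 to 15 without 1 library. Replicate numbers do not pair these libraries by any label. With the replicate number as a block 265 genes were called, all of the 62 among them, and Hist1h2bc remained the 1 clustered histone gene. Over the genes that passed the filter, the log2 CPM difference between the KO replicates had a correlation of 0.187 with that between the wild-type replicates. Over the alternatives, 137 fold changes of single genes kept their direction and call, 8 (all Hist1h2bc) lost the call and 3 reversed. Depth limits the genes under 1 TPM: 4 of the 58 had enough counts to be tested.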

Other observations

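The authors' deposited table of genotype means lists 15 of the 69 clustered histone genes, 13 of them with a negative log2 difference, KO minus wild type. In 5 of the 15 one genotype mean stands at 0 in the authors' deposited table in place of a mean under 1 TPM, in KO for 4 and in wild type for 1. The true mean was 0 for Hist1h4k and above 0 for the others. The log2 of such a mean also stands at 0, as a mean of 1 TPM would give, so these log2 differences are not those of the measured means. The other mean of each was above 1 TPM, so their sign follows from which genotype lay under it. The share of negative differences among all genes of that table was not counted here. For Hist1h4k, an H4 gene, the authors' deposited table gives 0 in KO, 1.91 TPM in wild type and a log2 difference of -0.93; for Hist1h3g, an H3 gene, it gives 1.36 TPM in KO, 0 in wild type and 0.45. Hist1h4k had 0 and 0 TPM in the KO libraries and 2.65 and 1.17 TPM in the wild-type libraries, and Hist1h3d had 0 and 0.709 TPM against 2.62 and 0.49 TPM. Neither was tested for lack of counts.

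Transcript models differ for other clustered histone genes too. Of the 63 with a count above 0, the length implied by count and TPM was within 2% of GENCODE M21 in 44, shorter in 17 and longer in 2. Hist1h1d was quantified over 744 bases against 7425 annotated, Hist1h1e over 748 against 1930 and Hist1h2ac over 476 against 2482. For comparison, between 85.6% and 86.1% of the genes with 1 annotated transcript and at least 200 counts lay within 2% in each library. Those genes were also limited in transcript length, and the length scale was fitted on them. Many of the clustered histone transcripts are shorter and rest on fewer counts, so the shares are not like for like.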
